A study of Mus musculus with 12 samples.

Results

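Messenger-like RNAs that carry small nucleolar RNAs (snoRNAs) in their introns, and long noncoding RNAs that stay in the nucleus, were followed in 12 mouse heart libraries. The set held 10 genes, taken by name from the 52858 genes in the deposited tables: the host genes Snhg1, Snhg3, Snhg5, Snhg6, Snhg8, Snhg12, Snhg15 and Gas5, and the nuclear RNAs Malat1 and Neat1. The genes were listed by name, and no threshold on a measured value was applied. The study asked how overexpression of Slit2, a secreted guidance protein, changes the heart's response to ischemia-reperfusion (IR), in which the coronary flow is stopped and then restored. Male C57BL/6J hearts and hearts of Slit2-Tg mice were perfused outside the body on a Langendorff apparatus with Krebs-Henseleit buffer. There were 4 groups of 3 hearts. C57-non-IR and Slit2-non-IR hearts were perfused without interruption, and C57-IR and Slit2-IR hearts went through global no-flow ischemia and reperfusion. The Slit2-Tg mice were heterozygous for a human Slit2 cDNA under the CMV promoter, which is not specific to a cell type, and the founder oocytes came from C57 and CBA parents. The paper describes the line as C57BL/6 and names C57BL/6J as its background strain. The labels gave the genotype, and IR or non-IR was read from the second letter of each sample title. All hearts had been perfused without blood, so no group stands for a heart taken straight from the animal.

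Each library held between 16601154 and 24841291 reads assigned to genes, and the values are FPKM, in which reads are scaled by the length of the gene and by the size of the library. Ventricular cardiomyocyte markers were abundant in every library (9 of 9 genes above 0, summed FPKM of 14486 to 22211). In Slit2-IR replicate 1 the 8 atrial markers summed to 1814 FPKM, against 94.6 to 327 in the other libraries. In each group the library numbered 1 stood farthest from the others. The mouse Slit2 row, which does not check a human transgene, read 0.085 to 0.813 FPKM.

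snoRNAs guide chemical changes on ribosomal and spliceosomal RNA. Box C/D snoRNAs direct 2′-O-methylation with fibrillarin, and box H/ACA snoRNAs direct pseudouridylation with dyskerin. In mammals most are cut from introns of a host transcript. The spliced host RNA itself often has little coding capacity, and several hosts, Gas5 among them, begin with a pyrimidine tract like that of ribosomal protein messages and are removed by nonsense-mediated decay when they are translated, so that their level rises when translation slows. Malat1 is an abundant RNA of nuclear speckles, where splicing factors gather. Neat1, its neighbour in the genome, is the scaffold of paraspeckles, nuclear bodies that hold the proteins Nono, Sfpq and Pspc1.

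The tables placed 30 snoRNA entries at 28 loci inside the 8 host genes on the host's strand. Gas5 (chr1:161034422-161038539, + strand) held 10 entries, Snhg1 (chr19:8723475-8726443, +) 8, Snhg12 (chr4:132308678-132311024, +) 5, Snhg3 (chr4:132348014-132353686, −) 2 and Snhg5 (chr9:88521050-88522929, −) 2. Snhg6 (chr1:9941959-9944118, −), Snhg8 (chr3:123507552-123508404, −) and Snhg15 (chr11:6525591-6528760, −) held 1 each. Malat1 (chr19:5795690-5802672, −) and Neat1 (chr19:5824708-5845478, −) held none. All coordinates are GRCm38. None of the 30 entries had a read in any library, and 254 of all 1558 snoRNA and small Cajal body RNA entries had one, so the values below are those of the host transcripts and say nothing of the snoRNAs. As examples of both classes, the single snoRNAs of Snhg6 and Snhg8 from the GENCODE transcripts are shown, with box C and box D of Snord87 and the ACA of Snora24 in capitals.
Snord87, chr1:9942463-9942549 (−): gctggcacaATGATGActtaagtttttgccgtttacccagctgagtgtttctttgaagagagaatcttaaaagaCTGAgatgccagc
Snora24, chr3:123507937-123508066 (−): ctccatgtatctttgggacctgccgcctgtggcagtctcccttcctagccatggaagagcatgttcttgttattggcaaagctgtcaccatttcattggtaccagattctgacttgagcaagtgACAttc

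The start regions of the hosts that varied together (below) and of Snhg15 are shown from RefSeq (GRCm38.p6), 30 bases before and 30 from the annotated start, with the longest pyrimidine run that reaches within 5 bases of the start in capitals. The table held 9 promoters of 8 members. Snhg6 and Neat1 were not among them.
Gas5, chr1:161035136-161035195 (+): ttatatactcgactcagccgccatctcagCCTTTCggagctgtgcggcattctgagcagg
Snhg8, chr3:123508307-123508366 (−): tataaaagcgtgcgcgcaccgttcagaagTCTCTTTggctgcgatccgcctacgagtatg
Snhg12, chr4:132308648-132308707 (+): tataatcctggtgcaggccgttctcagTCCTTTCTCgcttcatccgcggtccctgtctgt
Snhg1, chr19:8723457-8723516 (+): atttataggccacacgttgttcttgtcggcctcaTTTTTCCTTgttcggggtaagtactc
Snhg5, chr9:88522868-88522927 (−): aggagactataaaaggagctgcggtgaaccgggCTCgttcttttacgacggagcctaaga
Snhg15, chr11:6528731-6528790 (−): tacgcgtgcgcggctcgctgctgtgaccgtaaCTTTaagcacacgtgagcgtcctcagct
The run was 9 bases long in Snhg12 and Snhg1, which 6.89% of all 32851 promoters reached, 7 bases in Snhg8 (14.1%) and 6 in Gas5 (21.0%). It was 4 bases in Snhg15 and 3 in Snhg5, where the median over all promoters was 3. The Gas5 start shown lies 744 bases inside the span given in the files, and a second RefSeq start of Gas5 had a run of 3. TATAAA, searched on both strands over each RefSeq promoter, from 250 bases before the start to 50 after it, was found in the promoters of Snhg1, Snhg3, Snhg5 and Snhg8 and in 13.6% of all. The cyclic AMP response element TGACGTCA was found in Gas5, 46 bases before the start, and in Snhg15, 88 bases before it, and in 1.79% of all promoters. Snhg15 also held the E-box CACGTG (7.15% of all), and Snhg5 held the heat shock element core TTCNNGAA (8.52%). GAANNTTC (7.86%) and TGANTCA (7.81%) were in none of the 9. These are letter matches and were not measured as binding sites.

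Per length, the nuclear RNAs were the most abundant members. Malat1 had a mean of 53.5 FPKM ± 30.6 (SD, n = 12) and lay above Neat1 (20.8 ± 11.0) in 12 of 12 hearts. Snhg8 followed at 12.9 ± 4.93 and overlapped Neat1, which was higher in 9 of 12 hearts. Gas5 (6.91 ± 2.13) and Snhg6 (6.61 ± 1.68) did not differ beyond their spread, with Gas5 higher in 5 of 12 hearts. Snhg12 (3.95 ± 1.70) lay above Snhg5 (2.77 ± 0.923) in 12 of 12 hearts, whereas Snhg5 and Snhg1 (2.67 ± 0.765) changed places, with Snhg5 higher in 7. Snhg15 was lowest of the measured hosts at 1.38 ± 0.544 FPKM, or 20 to 72 reads a library. Snhg3, the host of the paired Snora73a and Snora73b, had 5 reads in all 12 libraries together, at most 2 in any library, and was not tested. A count of 0 there allows up to 3 reads. Snhg3 overlaps Rcc1, a coding gene on the same strand (1.63 to 2.35 FPKM). Gas5 overlaps Zbtb37 on the other strand (0.267 to 0.735 FPKM), and since the use of strand in counting is not given in the sources used here, reads from their shared bases cannot be told apart. The length used for Snhg1 (2969 bases) and Snhg8 (853) was the whole span of the gene, introns included. For Malat1 (6983) and Neat1 (20771) it was also the whole span. Neat1 had more reads in total (105441 against 90003), so the order of these RNAs depends on the lengths used.

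**Figure D1:**
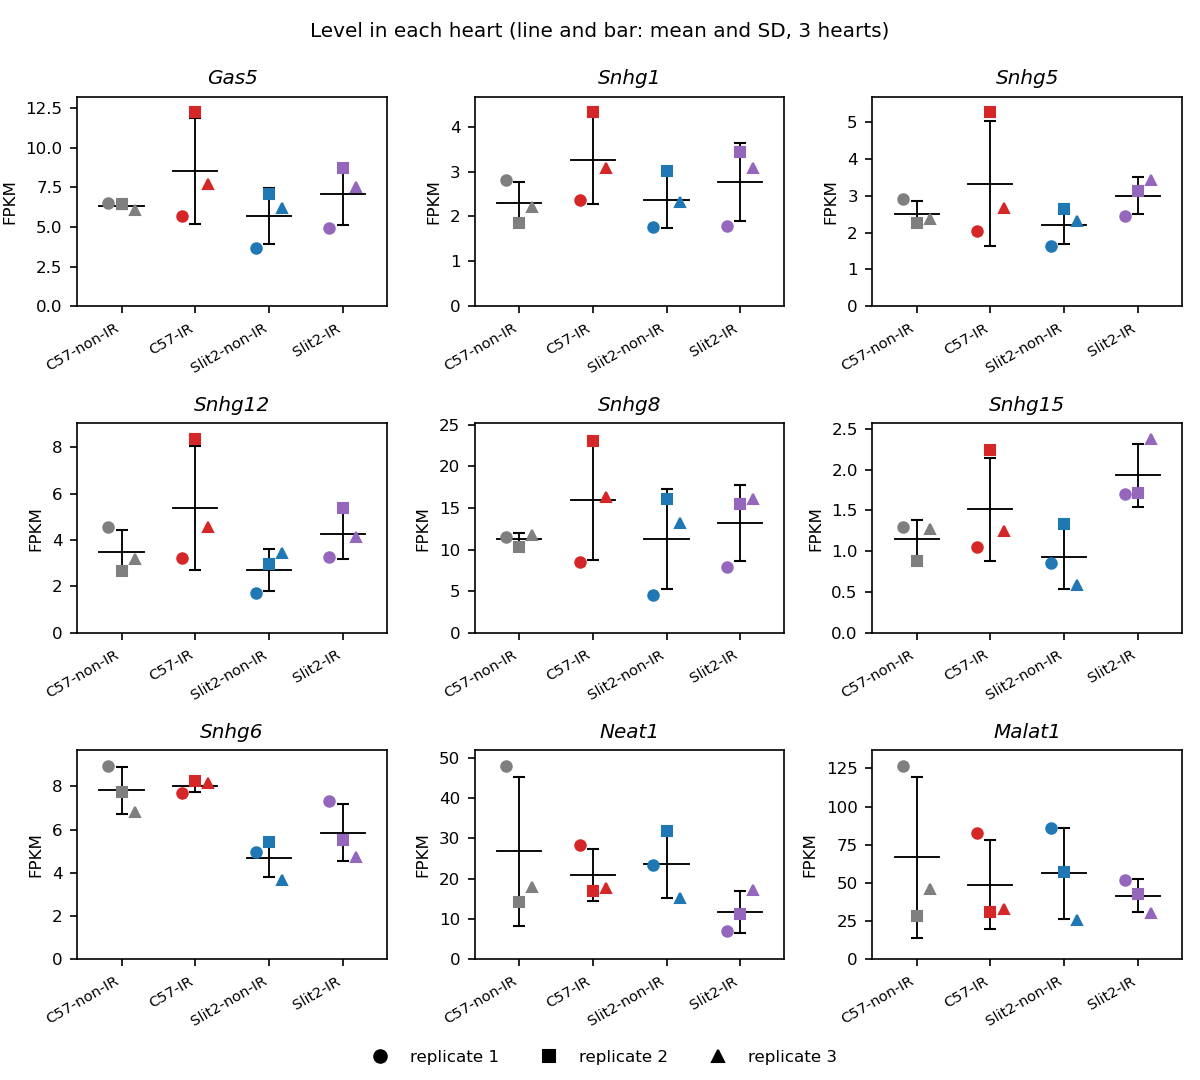
FPKM (y axis, linear, from 0) of the 9 tested members in each heart, by group, with circles, squares and triangles for replicates 1 to 3 and black lines and bars for the mean and SD of 3 hearts. Snhg6 lies lower in Slit2-Tg than in C57BL/6J hearts of the same IR state, and for most other members the hearts of a group spread more widely than the group means.

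IR in C57BL/6J hearts was the first comparison. None of the 9 tested members passed an adjusted p of 0.05 (limma, Benjamini-Hochberg over 15258 genes), where 0.439% of all tested genes did. None had an unadjusted p under 0.05 (8.96% of all genes), and limma-voom on the recovered reads also called none at the adjusted threshold. All 7 tested hosts had a higher mean after IR, with a median log2 fold change of FPKM + 1 of 0.32, and Malat1 and Neat1 a lower one. In the same comparison 50.4% of all tested genes were higher and the median gene was at 0.00. The hosts are not independent of each other, since 5 of them rose and fell together within groups.

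Gas5, named for its rise in growth-arrested cells, read 6.51, 6.43 and 6.10 FPKM in the C57-non-IR hearts and 5.67, 12.2 and 7.72 in the C57-IR hearts. Without IR the 3 hearts lay within 1.07 times of each other, and after IR replicate 2 was 2.16 times replicate 1, so the groups overlapped. The log2 fold change was 0.32 (SE 0.27, 95% interval −0.27 to 0.91, adjusted p = 0.882 by limma). Snhg8, the host of Snora24, went the same way, with 11.6, 10.3 and 11.8 FPKM without IR and 8.53, 23.1 and 16.4 after it. Its lowest and highest hearts were both C57-IR hearts, and its log2 fold change was 0.38 (SE 0.43). Snhg12 read 4.55, 2.65 and 3.20 FPKM without IR and 3.21, 8.35 and 4.54 after it, a difference of 0.45 (SE 0.29, 95% interval −0.19 to 1.09). Snhg1, host of a cluster of box C/D snoRNAs, ranged from 1.86 to 2.81 FPKM without IR and from 2.37 to 4.32 after it. Snhg5, host of Snord50a and Snord50b, ranged from 2.28 to 2.92 and from 2.05 to 5.27. In all 5 of these hosts the highest C57-IR heart was replicate 2 and the lowest was replicate 1.

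IR in Slit2-Tg hearts gave 1 member at an unadjusted p under 0.05, Snhg15, where 11.2% of all tested genes reached it. None passed the adjusted threshold by limma or by limma-voom, where 0.505% of all genes did (77 genes, or 194 with the replicate number as a block). Snhg15, the host of Snora9, read 0.851, 1.34 and 0.581 FPKM in the Slit2-non-IR hearts and 1.70, 1.71 and 2.38 in the Slit2-IR hearts. Each Slit2-IR heart lay above each Slit2-non-IR heart, a separation that 17% of all tested genes showed in this comparison. The log2 fold change was 0.62 (SE 0.19, 95% interval 0.21 to 1.03, unadjusted p = 0.00704, adjusted p = 0.196 by limma). In C57BL/6J hearts the same gene read 1.30, 0.886 and 1.28 FPKM without IR and 1.05, 2.24 and 1.24 after it, overlapping, with a difference of 0.20 (SE 0.19), where 13.8% of all genes had groups that did not overlap.

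The other hosts overlapped between Slit2-non-IR and Slit2-IR. Snhg12 read 1.72, 2.96 and 3.45 FPKM without IR and 3.27, 5.36 and 4.11 after it, with only Slit2-IR replicate 1 below the highest heart without IR. Its log2 fold change was 0.51 (SE 0.29, adjusted p = 0.571 by limma). Gas5 read 3.69, 7.11 and 6.22 FPKM without IR and 4.94, 8.74 and 7.51 after it, and Snhg8 read 4.52, 16.1 and 13.2 without IR and 7.91, 15.5 and 16.0 after it. In both genes and in both groups replicate 1 was the lowest heart. The differences were 0.28 (SE 0.27) for Gas5 and 0.30 (SE 0.43) for Snhg8. All 7 hosts again had a higher mean after IR, where 51.6% of all genes did.

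**Figure D2:**
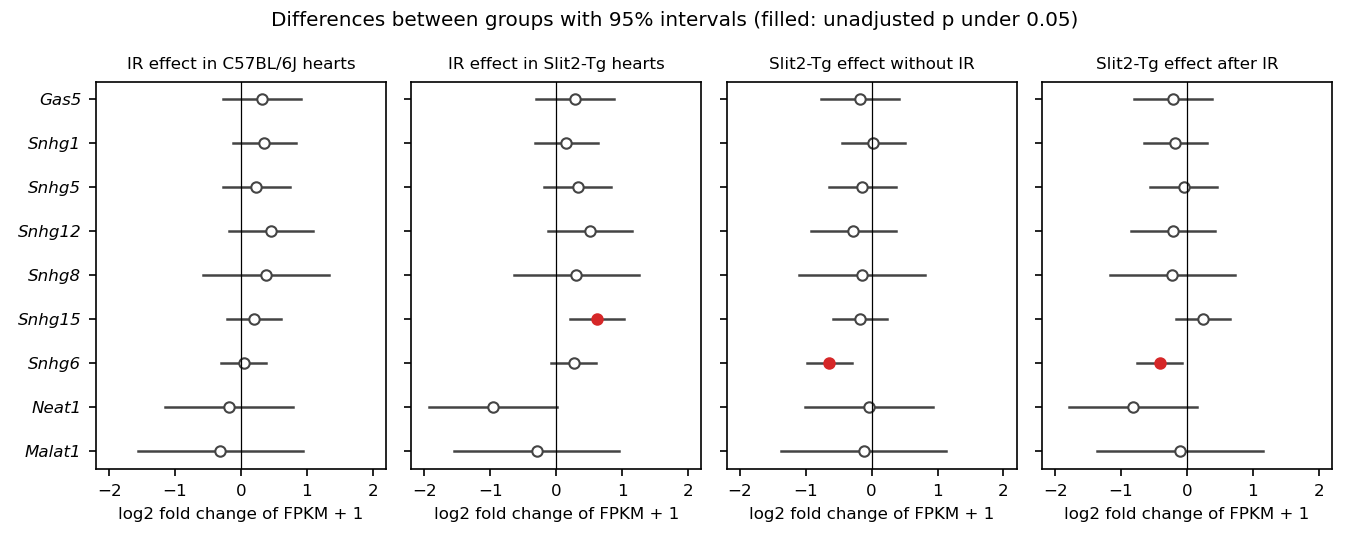
Log2 fold change of FPKM + 1 (x axis) of the 9 tested members in the 4 pairwise comparisons, with 95% intervals from limma. Filled points, Snhg15 for IR in Slit2-Tg hearts and Snhg6 for Slit2-Tg without and after IR, have an unadjusted p under 0.05, and no member passes an adjusted p of 0.05.

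Over both genotypes the mean IR effect had an unadjusted p under 0.05 for Snhg15 (log2 fold change 0.41, SE 0.13, unadjusted p = 0.0103, adjusted p = 0.136 by limma) and Snhg12 (0.48, SE 0.21, unadjusted p = 0.0382, adjusted p = 0.276 by limma), 2 of 9 members where 15.9% of all genes reached it. None of the 9 passed the adjusted threshold, where 3.48% of all genes did, and limma-voom called none. The unadjusted p of Snhg12 was 0.0575 to 0.0947 by limma when any 1 of 6 libraries was left out, C57-non-IR replicate 2 or 3, replicate 2 of C57-IR, Slit2-non-IR replicate 1, or Slit2-IR replicate 2 or 3. For the other hosts the mean effect was 0.30 (SE 0.19) for Gas5, 0.34 (SE 0.30) for Snhg8, 0.28 (SE 0.16) for Snhg5, 0.25 (SE 0.15) for Snhg1 and 0.15 (SE 0.11) for Snhg6. With the replicate number as a block Gas5 also had an unadjusted p under 0.05 for the mean effect (SE 0.12, unadjusted p = 0.0346, against 0.142 without the block, adjusted p = 0.221 by limma). Of the tested hosts all but Snhg8 were higher after IR in all 3 same-numbered pairs of Slit2-Tg hearts. In C57BL/6J hearts every tested host was lower in C57-IR replicate 1 than in C57-non-IR replicate 1. The shares of all genes with such pairs were not counted. The labels give no pairing and 5 of the hosts varied together, so these pairs are descriptions and not a result about the members. With the 4 libraries numbered 1 left out, a choice made after the values were seen, 6 hosts had an unadjusted p under 0.05 for the mean effect, all upward, where 18.2% of all genes reached it. These were Gas5, Snhg1, Snhg5, Snhg8, Snhg12 and Snhg15, with differences of 0.41 to 0.66 and a smallest adjusted p of 0.112 by limma. In C57BL/6J hearts alone it was 4 hosts (Gas5, Snhg1, Snhg8 and Snhg12), where 12.8% of all genes reached it.

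The comparison of Slit2-Tg with C57BL/6J hearts gave its smallest unadjusted p among members for Snhg6, the host of Snord87, both without and after IR. The gene read 8.97, 7.72 and 6.81 FPKM in C57-non-IR hearts, 7.70, 8.27 and 8.15 in C57-IR hearts, 4.96, 5.41 and 3.69 in Slit2-non-IR hearts and 7.31, 5.55 and 4.74 in Slit2-IR hearts. All 6 Slit2-Tg hearts except Slit2-IR replicate 1 lay below all 6 C57BL/6J hearts, and within each IR state the genotypes did not overlap. Without IR the log2 fold change was −0.64 (SE 0.16, 95% interval −0.98 to −0.30, unadjusted p = 0.00167, adjusted p = 0.708 by limma), and after IR it was −0.41 (SE 0.16, 95% interval −0.76 to −0.07, unadjusted p = 0.0218 by limma). The unadjusted p after IR was 0.0504 to 0.0977 by limma when any 1 of 4 libraries was left out, C57-IR replicate 2 or 3 or Slit2-IR replicate 2 or 3. Snhg6 was the only member to pass the unadjusted threshold in either comparison, where 3.18% of all genes did so without IR and 3.16% after IR. The 3 hearts of each genotype were fully separated for 9.18% of all genes without IR and 6.47% after it. No member passed the adjusted threshold by limma or limma-voom, where 0.0393% and 0.0459% of all genes did. The reads behind Snhg6 were 107 to 210 a library, and Mcmdc2, which overlaps it on the other strand, had at most 3 reads. The founder oocytes of the Slit2-Tg line were in part CBA, although the paper names C57BL/6J as its background strain. The transgene and any linked or background variants therefore cannot be told apart in this comparison.

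For the other hosts the genotypes overlapped in both IR states. Gas5 differed by −0.18 (SE 0.27) without IR and −0.22 (SE 0.27) after it, and Snhg12 by −0.28 (SE 0.29) and −0.22 (SE 0.29). Snhg1 differed by 0.03 (SE 0.22) and −0.18 (SE 0.22), and Snhg5 by −0.14 (SE 0.23) and −0.05 (SE 0.23). Snhg8 had the widest intervals among hosts, −1.10 to 0.80 without IR and −1.17 to 0.73 after it, both reaching beyond −1 on the log2 scale. Snhg15 differed by −0.17 (SE 0.19) without IR and by 0.24 (SE 0.19) after it. The IR and genotype comparisons share groups of hearts, so their values are not independent. The difference between the IR effects of the genotypes had no member at an unadjusted p under 0.05 (1.85% of all genes) and none at the adjusted threshold (0% of all genes, limma), with log2 differences of 0.42 (SE 0.26) for Snhg15 and −0.78 (SE 0.62) for Neat1. Without C57-IR replicate 2 the unadjusted p for Snhg15 was 0.0217, and without C57-non-IR replicate 1 that for Neat1 was 0.0283 (limma). limma-voom called no member either.

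Malat1 and Neat1 varied most from heart to heart. Malat1 read 127, 28.1 and 46.0 FPKM in C57-non-IR hearts, 82.7, 31.0 and 33.2 in C57-IR hearts, 85.8, 56.9 and 26.0 in Slit2-non-IR hearts and 52.2, 42.6 and 30.6 in Slit2-IR hearts. In each of the 4 groups replicate 1 was the highest heart, and in C57-non-IR it was 4.51 times the lowest. The IR differences were −0.31 (SE 0.57, 95% interval −1.56 to 0.94) in C57BL/6J and −0.30 (SE 0.57, 95% interval −1.55 to 0.96) in Slit2-Tg hearts, with all groups overlapping. It had 4243 to 15096 reads a library, so counting error was small beside this spread.

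Neat1 read 48.1, 14.3 and 17.9 FPKM in C57-non-IR hearts, 28.5, 16.9 and 17.7 in C57-IR hearts, 23.4, 31.9 and 15.3 in Slit2-non-IR hearts and 6.96, 11.3 and 17.3 in Slit2-IR hearts. The 2 lowest hearts of all 12 were Slit2-IR replicates 1 and 2, while replicate 3 lay within the range of the other groups. The log2 fold change with IR was −0.96 in Slit2-Tg hearts (SE 0.44, 95% interval −1.93 to 0.01, unadjusted p = 0.0525, adjusted p = 0.453 by limma) and −0.18 in C57BL/6J hearts (SE 0.44). Between genotypes after IR it was −0.82 (SE 0.44, unadjusted p = 0.0897). For IR in Slit2-Tg hearts Neat1 had an unadjusted p under 0.05 in 9 of the 20 other settings, 5 of them with all 12 libraries or the 6 compared (0.0306 to 0.0490, limma-voom 0.0385) and 4 with 1 library left out (lowest 0.0172, without C57-non-IR replicate 1). Without Slit2-IR replicate 1 the unadjusted p was 0.195 by limma. Slit2-IR replicate 1, the lowest, is also the library with the high atrial sum, and with the 4 libraries numbered 1 left out the difference was −0.63 (unadjusted p = 0.0993 by limma).

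The ratio of Neat1 to Malat1 within a heart ranged from 0.379 to 0.509 in C57-non-IR, from 0.344 to 0.544 in C57-IR, from 0.272 to 0.590 in Slit2-non-IR and from 0.133 to 0.565 in Slit2-IR hearts. Both extremes of the ratio in IR hearts belonged to Slit2-IR. Its log2 difference with IR was −0.72 in Slit2-Tg hearts (two-sided exact permutation p = 0.3) and 0.14 in C57BL/6J hearts (two-sided exact permutation p = 0.8), with 0.767 and 0.8 after adjustment over 5 comparisons. With 3 hearts against 3 the smallest p such a test can give is 0.1.

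The spread between hearts of the same group was large for the members. The SD within groups on the log2(FPKM + 1) scale was 0.82 for Malat1, 0.63 for Neat1 and 0.62 for Snhg8, larger than that of 99.4%, 98.5% and 98.4% of tested genes, and the median gene had 0.15. It was 0.41 for Snhg12, 0.37 for Gas5, 0.32 for Snhg5, 0.30 for Snhg1, 0.26 for Snhg15 and 0.20 for Snhg6. This scale shrinks the spread of genes with low values, and the shares of tested genes were not matched on level.

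This spread was shared among 5 hosts. Gas5, Snhg1, Snhg5, Snhg8 and Snhg12, grouped after their values were seen, rose and fell together around their group means, with Pearson correlations of the deviations of 0.82 to 0.95 over 12 libraries for the 10 pairs. Gas5 and Snhg8, on different chromosomes, had the highest (0.95). All 5 were lowest in replicate 1 of each group except C57-non-IR, and all 5 were highest in replicate 2 of C57-IR. With the libraries numbered 1 left out the 10 correlations were 0.68 to 0.95 over 8 libraries. The hearts left in a group then mirror each other around their mean, so each group gives a single independent value. Over all 12 libraries Snhg15 followed them less closely (0.54 to 0.78), and Snhg6 did not follow them (−0.27 to −0.04). Without the libraries numbered 1 these ranges were 0.34 to 0.92 for Snhg15 and −0.08 to 0.47 for Snhg6. Malat1 had correlations of −0.54 to −0.16 with the 5 hosts, which turned to 0.03 to 0.62 once the libraries numbered 1 were left out. With Neat1 its correlation was 0.66 (0.64 without those libraries). The points share library scale and tissue make-up, so these correlations are descriptions of the 12 libraries.

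**Figure D3:**
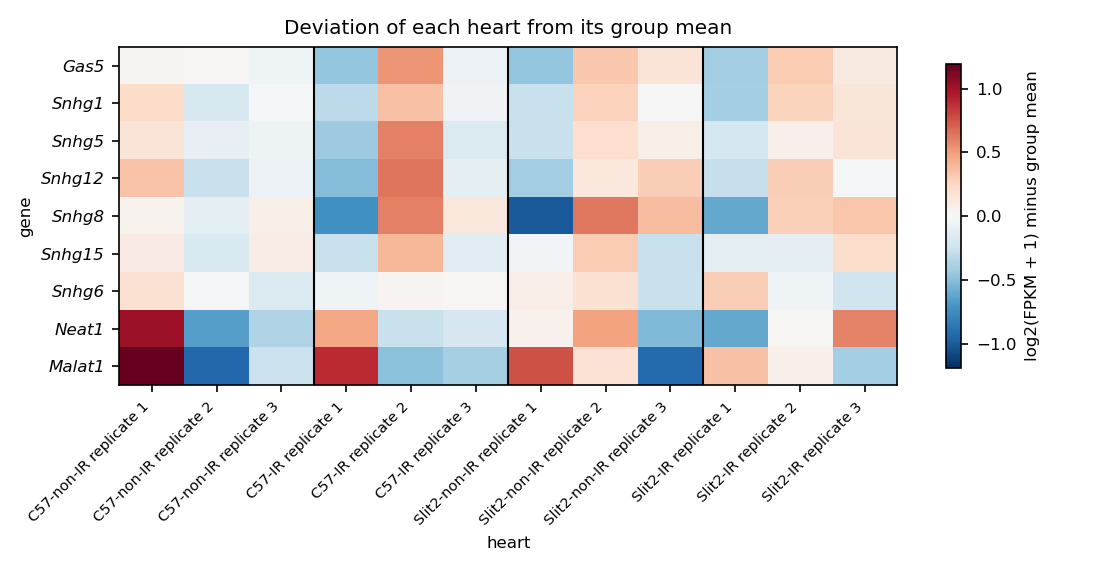
Deviation of each heart (x axis) from its group mean in log2(FPKM + 1), colour scale, for the 9 tested members (y axis), with black lines between groups. The 5 upper rows share their colours, low in replicate 1 of each group except C57-non-IR, and the Malat1 row is high in replicate 1 of every group.

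Markers of cell types moved with these deviations. The 7 endothelial markers, all above 0 in every library, summed to 265 to 272 FPKM in replicate 1 of each group except C57-non-IR, the hearts where the 5 hosts were lowest, and to 378 to 476 FPKM in the other 9 hearts. Their within-group deviations correlated with those of Gas5 at 0.86. The 8 macrophage and leukocyte markers, 6 of them above 0 in every library, summed to 115 to 151 FPKM in replicate 1 of the 4 groups, where Malat1 was highest, and to 163 to 248 in the other hearts, a correlation with Malat1 of −0.87. The 6 fibroblast markers correlated with Malat1 at −0.80 and with Gas5 at 0.46, and the 9 ventricular markers at 0.79 with Malat1 and −0.61 with Gas5. The 5 smooth muscle and pericyte markers summed to 132 to 297 FPKM (0.44 with Gas5). The blood (1.47 to 49.0 FPKM), adipose (0.072 to 14.9), lung (0.058 to 12.2) and skeletal muscle sums (474 to 854, with Myh4 at 0) had correlations with Gas5 of 0.06, 0.37, 0.51 and −0.46. Several of these relations were not seen, or were reversed, without the libraries numbered 1. Over the other 8 libraries the endothelial sum correlated with Gas5 at −0.06, the leukocyte sum with Malat1 at −0.12 and the ventricular sum with Malat1 at −0.88. The fibroblast sum then correlated with Malat1 at 0.38 and with Gas5 at −0.71, and the smooth muscle and pericyte sum with Gas5 at −0.63. With Gas5 the ventricular (−0.38) and skeletal muscle sums (−0.84) kept their sign. The blood, adipose and lung sums were at 0.17, −0.10 and 0.17 with Gas5. Each group again gives a single independent value there. The part of these markers in the members' levels was not tested, and in bulk tissue fewer cells of a type and less RNA per cell cannot be told apart.

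**Figure D4:**
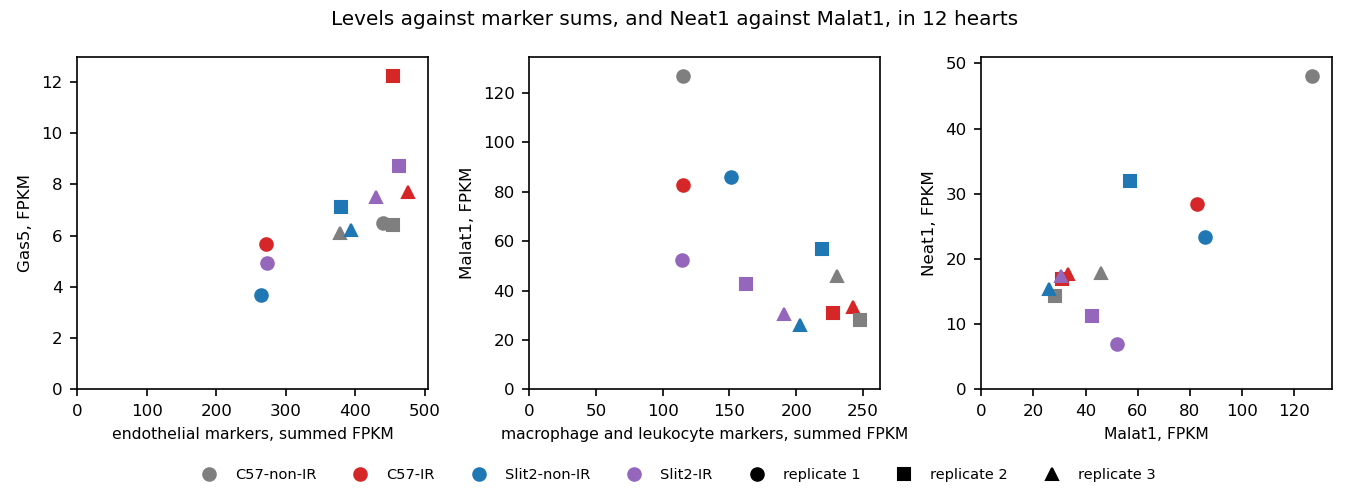
Gas5 against the summed endothelial markers, Malat1 against the summed macrophage and leukocyte markers, and Neat1 against Malat1, all in FPKM on linear axes from 0, with 12 hearts as points coloured by group and shaped by replicate. The 3 hearts with endothelial sums of 265 to 272 FPKM have the 3 lowest Gas5 values, and the 4 hearts with the lowest leukocyte sums include the 3 highest Malat1 values.

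Ribosomal protein genes, whose messages share the pyrimidine tract with several hosts, were described beside them. Of 81 tested cytosolic ribosomal protein genes 77 had a higher mean after IR over both genotypes (median log2 fold change 0.11, beside 0.00 for all genes) and none passed the adjusted threshold in either direction (limma or limma-voom), with 4 upward at an unadjusted p under 0.05 (4.94%, beside 15.9% of all genes). Their mean deviation from the group mean was −0.17, −0.13 and −0.13 in replicate 1 of each group except C57-non-IR, and it correlated at 0.83 with that of Gas5. For the other lists described below this correlation ranged from −0.15 (nonsense-mediated decay factors) to 0.72 (coding snoRNA hosts). It was 0.67 for the other noncoding hosts, so the relation was not particular to the ribosomal protein genes. Its value without the libraries numbered 1 was not computed. In Slit2-Tg hearts 78 of the 81 had a lower mean without IR (median −0.17), where 48.9% of all genes had a higher mean, with 4 at an unadjusted p under 0.05 (4.94%, beside 3.18% of all genes) and none at the adjusted threshold (limma or limma-voom). These lists were chosen with results of the data known, and their counts are descriptions.

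Over the 8 lists together 11 of 391 tested genes passed the adjusted threshold for the mean IR effect (2.81%, 9 genes by limma-voom), no more than the 3.48% of all genes, so the genes below are single values and not a result about the lists. Of 17 snoRNP proteins and assembly factors 2 rose over both genotypes and none fell. Nop58, a core protein of box C/D particles, rose from 1.40 ± 0.279 to 2.32 ± 0.498 FPKM in C57BL/6J hearts and from 1.38 ± 0.113 to 2.38 ± 0.232 in Slit2-Tg hearts (SD, n = 3, log2 fold change 0.49, SE 0.09, adjusted p = 0.0113 by limma). Snu13, which binds the kink-turn of the same particles, rose by 0.37 (SE 0.08, adjusted p = 0.0223 by limma). It went from 23.6 ± 0.289 to 27.7 ± 3.23 FPKM in C57BL/6J and from a lower 17.3 ± 0.611 to 25.5 ± 3.21 in Slit2-Tg hearts. Of 241 tested coding genes that hold a snoRNA, 4 rose and 2 fell (2.49%, below the share of all genes), with a median of 0.03. Hspa8, a constitutive heat shock chaperone whose introns hold snoRNAs, rose from 272 ± 37.7 to 462 ± 108 FPKM in C57BL/6J and from 268 ± 22.7 to 501 ± 39.8 in Slit2-Tg hearts (log2 fold change 0.82, SE 0.12, adjusted p = 0.00471 by limma). Odc1, the first enzyme of polyamine synthesis, rose by 0.80 (SE 0.13, adjusted p = 0.00609 by limma), and Sash1 by 0.52 (SE 0.12, adjusted p = 0.0368 by limma), and Nop58, itself a host, was the fourth. The 2 that fell, named after their values were seen, were the caspase gene Casp2 (−0.21, SE 0.05, adjusted p = 0.0412 by limma) and Cwf19l1 (−0.22, SE 0.05, adjusted p = 0.0473 by limma). Of 9 other noncoding hosts none passed the adjusted threshold in any of the comparisons (limma or limma-voom), and their median over both genotypes was 0.05. Snhg20, named after its values were seen, was the single one with an unadjusted p under 0.05, for the mean IR effect (−0.42, SE 0.14) and for IR in C57BL/6J hearts (−0.59, SE 0.20).

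Among proteins of the nuclear bodies, 2 of 24 paraspeckle proteins rose with IR over both genotypes and none fell, where 3.48% of all genes were called. Pspc1, a paraspeckle core protein, rose by 0.31 (SE 0.07, adjusted p = 0.0384 by limma) and Hnrnpf by 0.26 (SE 0.06, adjusted p = 0.0487 by limma), and the list's median was 0.10. Of 24 nuclear speckle and SR proteins 1 rose, the splicing regulator Tra2b, from 6.76 ± 0.215 to 11.3 ± 2.66 FPKM in C57BL/6J and from 7.39 ± 0.940 to 10.5 ± 1.73 in Slit2-Tg hearts (log2 fold change 0.55, SE 0.11, adjusted p = 0.0227 by limma). None of 19 nonsense-mediated decay factors passed by limma or limma-voom (median −0.02, 3 or 15.8% at an unadjusted p under 0.05, beside 15.9% of all genes). Of 10 other long noncoding RNAs 1 rose, Rn7sk, the RNA that holds the elongation factor P-TEFb inactive, from 1.62 ± 1.07 to 5.06 ± 2.75 FPKM in C57BL/6J and from 1.49 ± 0.416 to 5.42 ± 0.356 in Slit2-Tg hearts (log2 fold change 1.27, SE 0.27, adjusted p = 0.0244 by limma). Within a single genotype none of the 391 tested genes of the 8 lists passed the adjusted threshold for IR by limma, with 18 at an unadjusted p under 0.05 in C57BL/6J (4.60%, beside 8.96% of all genes) and 29 in Slit2-Tg hearts (7.42%, beside 11.2%), and limma-voom called 0 and 1.

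The 3 genes most like each member over the 12 libraries, by Pearson correlation of log2(FPKM + 1) among all tested genes that are no members, are given as descriptions. For Gas5 these were Sub1, Polr1c and Cfdp1 (0.95, 0.95 and 0.94), for Snhg8 Cfdp1, the ribosomal protein gene Rpl11 and Chic2 (0.95, 0.95 and 0.95), and for Snhg12 Cdk11b, Cd93 and Nop56 (0.93, 0.93 and 0.92). Cd93 is an endothelial and myeloid surface receptor, and Nop56 a core box C/D protein. For Snhg1 they were Ddx5, the endothelial claudin Cldn5 and Slc7a6os (0.94, 0.90 and 0.90), and for Snhg5 Nr1h2, 2410006H16Rik and Zrsr2 (0.98, 0.95 and 0.92). Snhg15 was most like Ilf2, Trnau1ap and Dnajc24 (0.90, 0.88 and 0.88). For Snhg6 an unnamed transcript had the highest correlation (0.87), followed by Zmat5 and Gm12097 (0.86 and 0.85). Malat1 was most like Srrm1, a speckle protein gene, Pln, the regulator of the cardiac calcium pump, and Gm13192 (0.95, 0.95 and 0.94), and Neat1 was most like Gm43185, Miip and Gm43681 (0.97, 0.94 and 0.93).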

How the data were processed

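RNA-seq libraries of 12 mouse hearts (4 groups of 3, separate samples per the labels) were analysed. The authors deposited FPKM per gene and library, with gene lengths and GRCm38 coordinates. The submitters' processing notes name HISAT2 and mm10, and the counting tool, annotation release and strand setting are not given in the sources used here. Multiplied by gene length, 100% of values came out as whole reads (tolerance 0.01 of a read), and the reads recovered in this way gave the depth, 16601154 to 24841291 per library.

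Tests were limma 3.58.1 (R 4.3.3) with a variance trend on log2(FPKM + 1), all 12 libraries in 1 fit and no covariate, which understates changes of low genes. A gene was tested (15258 genes) if at least 3 libraries reached 10 reads, scaled to the median library, and all libraries together 15. p-values were adjusted by Benjamini-Hochberg over these genes, with a threshold of 0.05. The script was tested on simulated data. The members and the 8 gene lists were chosen with earlier results of these data known. All members are named, and of a list at most the 4 genes with the smallest p among those past the adjusted threshold for IR. Correlations over libraries carry no p. Promoters are from RefSeq and snoRNAs from GENCODE M21.

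Deviations of same-numbered libraries had positive correlations in all 3 pairs of Slit2-IR with Slit2-non-IR (0.142 to 0.295) and with C57-IR (0.154 to 0.362). They were also positive for C57-IR with C57-non-IR (0.0837 to 0.295) and for Slit2-non-IR with C57-non-IR (0.0380 to 0.324). No shared day or litter is given in the labels, so the pairing comes from the data. Alternatives were a pseudocount of 0.1, both other filters (1 read, or 10 reads in every library), a fit of the 6 libraries compared, a replicate block, TMM scaling, limma-voom on recovered reads, each library left out and, added after seeing the data, the 4 libraries numbered 1 left out.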

Additional observations from a re-analysis of the deposited data

How the results depend on the processing

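No member passed the adjusted threshold under the 20 other settings run for the 4 pairwise comparisons or the 19 run for the mean IR effect and the interaction, for which there is no fit of 6 libraries. Of 54 member differences 24 changed sign in some setting, always with libraries left out, and none of those with an unadjusted p under 0.05. The cause was not tested.

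Members at an unadjusted p under 0.05 numbered 4 for IR in C57BL/6J hearts (0 as reported), 6 for the mean IR effect (2) and 1, Snhg8, for the interaction (0) with the 4 libraries numbered 1 left out. For IR in Slit2-Tg hearts there were 2 (1 as reported), with Neat1 added, under a pseudocount of 0.1, 10 reads in every library, the fit of 6 libraries, TMM scaling and limma-voom, and for Slit2-Tg after IR 2 (1) in the fit of 6 libraries. With 1 library left out these counts ranged from 0 to 2 for IR in C57BL/6J, 1 to 3 for IR in Slit2-Tg, 1 to 4 for the mean, 0 to 2 for Slit2-Tg after IR and 0 to 1 for the interaction.

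Genes called over the whole table numbered 67 for IR in C57BL/6J, against 7 with the filter of 1 read, 9 in the fit of 6 libraries, 171 with the replicate block, 32 with limma-voom, 175 without the libraries numbered 1 and 3 to 254 with 1 library left out. For IR in Slit2-Tg they were 77, against 19 with 1 read, 194 with the block, 121 with limma-voom, 25 without the libraries numbered 1 and 4 to 178 with 1 left out. For the mean they were 531, against 299 with 1 read, 773 with the block and 329 to 713 with 1 left out. For Slit2-Tg without IR they were 6, against 10 with a pseudocount of 0.1, 11 with 1 read, 3 with 10 reads in every library, 2 with the block, 0 without the libraries numbered 1 and 1 to 14. For Slit2-Tg after IR they were 7, against 3 with 10 reads in every library, 4 in the fit of 6 libraries, 4 without the libraries numbered 1 and 4 to 12. For the interaction they were 0, against 4 with 1 read, 2 without the libraries numbered 1 and 0 to 1. With the block 3 members, Gas5 added, had an unadjusted p under 0.05 for the mean IR effect (2 without it), and the members' other counts did not change.

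Differences that changed sign without the libraries numbered 1 were Neat1 for IR in C57BL/6J (0.10), Gas5 (0.075), Snhg5 (0.070), Snhg8 (0.37), Snhg12 (0.10), Malat1 (0.10) and Neat1 (0.45) for Slit2-Tg without IR, Malat1 (0.17) for Slit2-Tg after IR, and Snhg5 (−0.24) and Snhg12 (−0.44) for the interaction. With 1 library left out the log2 ranges for IR in C57BL/6J were −0.78 to 0.29 for Malat1, −0.51 to 0.33 for Neat1, −0.068 to 0.45 for Snhg5 and −0.045 to 0.13 for Snhg6, and for IR in Slit2-Tg −0.76 to 0.083 for Malat1 and −0.20 to 0.62 for Snhg8. For Slit2-Tg without IR they were −0.34 to 0.059 for Gas5, −0.59 to 0.47 for Malat1, −0.37 to 0.47 for Neat1, −0.11 to 0.16 for Snhg1 and −0.46 to 0.35 for Snhg8. For Slit2-Tg after IR they were −0.44 to 0.050 for Gas5, −0.35 to 0.34 for Malat1, −0.33 to 0.026 for Snhg1, −0.48 to 0.10 for Snhg12, −0.27 to 0.25 for Snhg5 and −0.59 to 0.081 for Snhg8. Depth limits Snhg15 most (20 to 72 reads a library), and Snhg3 could not be measured.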
